A study of Mus musculus with 32 samples.

Results

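The genes described here write, copy and remove DNA methylation: the methyltransferases Dnmt1, Dnmt3a and Dnmt3b, the targeting factor Uhrf1, the oxidizing enzymes Tet1, Tet2 and Tet3, the glycosylase Tdg, and the stress-inducible genes Gadd45a and Gadd45b. They were taken by name, and 10 of 10 were found in both count tables among 23284 genes. Enough counts for a test were held by 9 of the 10 in each table. Tdg held 0 to 11 counts per culture library and 0 to 6 per lesion, and was not tested.

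RNA was sequenced from C57BL/6 mice and mouse cells that lacked Oct4, the pluripotency factor encoded by Pou5f1 (genotype Oct4 -/-, called KO), or carried it (wild type, WT). Lesions came from the brachiocephalic artery after 18 weeks of Western diet, from 4 KO and 4 WT animals, and are labelled as a mixture of smooth muscle, macrophage and other cells. Cultured aortic smooth muscle cells came from 1 primary line per genotype, in 8 groups of 3 libraries. They received POVPC, an oxidized phospholipid of atherosclerotic plaque, or vehicle, under hypoxia (1% oxygen) or normoxia. The groups were KO POVPC hypoxia, WT POVPC hypoxia, KO vehicle hypoxia, WT vehicle hypoxia, KO POVPC normoxia, WT POVPC normoxia, KO vehicle normoxia and WT vehicle normoxia. The age of the mice, the promoter or Cre behind the deletion, any further allele such as Apoe, and the dose and duration of POVPC and hypoxia are not given in the sources used here. With 1 line per genotype, the genotype and the line cannot be told apart in culture. Nothing says that the 3 libraries of a group were separate cultures, so p-values there measure only the spread between these libraries.

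Methylation of cytosine in CpG pairs is laid down by Dnmt3a and Dnmt3b, which act on unmethylated DNA, and is copied at each round of replication by Dnmt1, which Uhrf1 brings to the hemimethylated sites behind the replication fork. Tet enzymes oxidize methylcytosine, Tdg cuts out the oxidized bases, and Gadd45 proteins bind repair factors and have been reported to help demethylation. In vascular smooth muscle, Tet2 is known as a promoter of the contractile state, and the Oct4 promoter itself is a textbook case of a gene that methylation keeps silent in differentiated cells. Transcript levels of these genes say nothing by themselves of enzyme activity or of methylation, neither of which was measured.

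Totals were 8063121 to 30231799 counts per culture library and 6526099 to 11137414 per lesion. Pou5f1 itself had counts in 3 of 24 culture libraries, at most 2, and in 1 of 8 lesions, with 3 counts in a WT animal, so these counts could not check the genotype labels. As a check of the oxygen label, 11 of 12 targets of the hypoxia factor HIF rose under hypoxia in each of the 4 comparisons of oxygen. The smooth muscle label was not clear in culture: Myh11, the smooth muscle myosin, averaged 0.243 ± 0.243 CPM in KO vehicle normoxia and 5.15 ± 0.395 CPM in WT vehicle normoxia (SD, n = 3 each), against 1840 ± 286 CPM in KO lesions and 2780 ± 364 CPM in WT lesions (n = 4 each). CPM are counts relative to the library total, scaled by the TMM method within each table, so this last contrast sets separately normalized values side by side. Markers of adventitial fibroblasts summed to 843 to 932 CPM in KO vehicle normoxia and 275 to 299 CPM in WT vehicle normoxia. Smooth muscle markers summed to 63.2 to 70.7 CPM in KO and 279 to 332 CPM in WT of the same condition. Acta2, the smooth muscle actin, was the highest of these in every culture group. It averaged 58.3 ± 3.57 CPM in KO vehicle normoxia and 263 ± 25.7 CPM in WT vehicle normoxia, against 1610 ± 274 CPM in KO lesions and 2020 ± 554 CPM in WT lesions. Of 5 fibroblast markers, 4 were higher and 1 lower in KO under vehicle and normoxia. The fibroblast sums were higher in KO in every culture condition (298 to 382 CPM in KO and 53 to 69.4 CPM in WT under POVPC and hypoxia, for example). Single fibroblast markers did not all follow. Under POVPC and normoxia Ly6a averaged 288 ± 17.1 CPM in KO and 400 ± 12.8 CPM in WT. Pdgfra there was 119 ± 5.47 CPM in KO and 128 ± 6.24 CPM in WT, while Pi16, Cd34 and Dpt were higher in KO. Under vehicle and hypoxia Ly6a was 53.5 ± 3.85 CPM in KO and 56 ± 3.87 CPM in WT, and the others were higher in KO. The smooth muscle sums of the lines overlapped under vehicle and hypoxia (53.3 to 56.1 CPM in KO and 51.8 to 65.9 CPM in WT). They also overlapped under POVPC and hypoxia (24.9 to 45.2 CPM in KO and 22.3 to 32.3 CPM in WT). Single smooth muscle markers parted within that last condition. Tagln was 7.74 ± 1.83 CPM in KO and 2.36 ± 0.361 CPM in WT, and Lmod1 was 1.69 ± 0.56 CPM in KO and 4 ± 0.47 CPM in WT. The part of the fibroblast and smooth muscle markers in the genotype results below was not tested. Macrophage markers summed to at most 8.01 CPM in culture. The macrophage marker Trem2 was at 0 in all but the KO normoxia groups.

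Per length, Gadd45b, Gadd45a and Dnmt1 stood highest in culture and Tdg lowest. RPKM are the CPM divided by the gene length in kilobases, taken over all its counted exons. The culture means in RPKM were 55.1 for Gadd45b, 14 for Gadd45a, 8.61 for Dnmt1, 6.14 for Tet3, 5.28 for Tet2, 3.89 for Dnmt3a, 3.72 for Uhrf1, 1.55 for Tet1, 0.523 for Dnmt3b and 0.0727 for Tdg. Gadd45b lay at the 91.2 percentile of tested genes and Dnmt3b at the 15.7 percentile. In lesions Dnmt3a averaged 21.4 ± 5.86 RPKM (SD over 8 animals), next to Gadd45a at 22.4 ± 8.86 RPKM, and Dnmt1 averaged 12.3 ± 1.14 RPKM. Levels of the 2 tables were normalized apart, so their difference is a description. The genes also differed in how far the 8 culture groups lay apart: the highest group mean in CPM was 12.6 times the lowest for Gadd45b, 11.6 times for Uhrf1, 2.92 to 3.84 times for Tet1, Tet3, Gadd45a, Dnmt3a and Dnmt3b, 1.80 times for Tet2 and 1.36 times for Dnmt1.

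**Figure D1:**
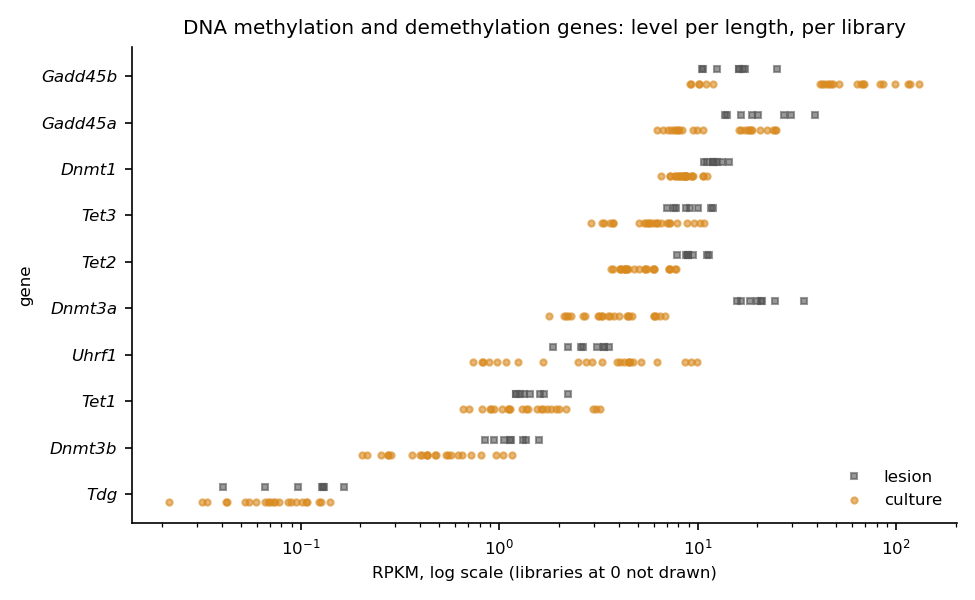
Level per gene length (RPKM, log scale, x axis) of the 10 genes (y axis) in each of 8 lesion libraries (squares) and 24 culture libraries (circles). Gadd45b spreads over the widest range in culture, in a low cluster of KO normoxia libraries near 10 RPKM and a high one, while the circles of Dnmt1 lie close together; libraries at 0 counts are not drawn.

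Tdg was the single member without usable counts, with a highest culture group mean of 0.337 ± 0.0105 CPM in WT POVPC normoxia. RefSeq lists the pseudogenes Tdg-ps and Tdg-ps2, and per the file headers reads that mapped to several places were not counted, so its level is uncertain and a low count does not show that it is not expressed. Dnmt3a and Dnmt3b also have a pseudogene in RefSeq, and Dnmt3a overlaps the antisense RNA Dnmt3aos, whose reads these unstranded counts cannot separate from its own. On mm9 the genes lie at chr10:62267318-62342762 on the minus strand (Tet1), chr3:133126641-133207354 minus (Tet2), chr6:83312368-83391672 minus (Tet3), chr9:20711650-20764332 minus (Dnmt1), chr12:3806980-3914443 plus (Dnmt3a), chr2:153475190-153513466 plus (Dnmt3b), chr17:56442760-56462909 plus (Uhrf1), chr10:82092583-82113239 plus (Tdg), chr6:66985090-66987401 minus (Gadd45a) and chr10:80392836-80394949 plus (Gadd45b). Counts were summed over all exons of each gene.

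In culture the KO line had less Tet1 and Gadd45b and more Tet3 and Dnmt3a than the WT line in all 4 conditions, while Uhrf1 was higher in KO in 1 condition and lower in the other 3. Over the 9 tested genes and 4 conditions, 26 of 36 tests passed at an FDR (false discovery rate, edgeR, adjusted over all genes) under 0.05, 10 of them higher and 16 lower in KO. Of all 14496 genes tested, 57.6% were called under POVPC and hypoxia, 59.9% under vehicle and hypoxia, 60.2% under POVPC and normoxia and 60.6% under vehicle and normoxia, against 7, 7, 6 and 6 of the 9 genes. The share of all genes higher in KO was 30%, 29.5%, 29.5% and 29.8% in the same order of conditions, and the share lower was 27.6%, 30.4%, 30.7% and 30.8%. Calls in the same direction in all 4 conditions were made for 27.7% of genes and for 4 of these 9: 2 higher, as were 14% of genes, and 2 lower, as were 13.8%. The libraries of the 2 lines did not overlap for 58.5% of genes under POVPC and hypoxia, 62.7% under vehicle and hypoxia, 68.4% under POVPC and normoxia and 65.8% under vehicle and normoxia. Most genes differed between the 2 lines, so a call by itself did not set these genes apart, and the sizes below are the information.

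**Figure D2:**
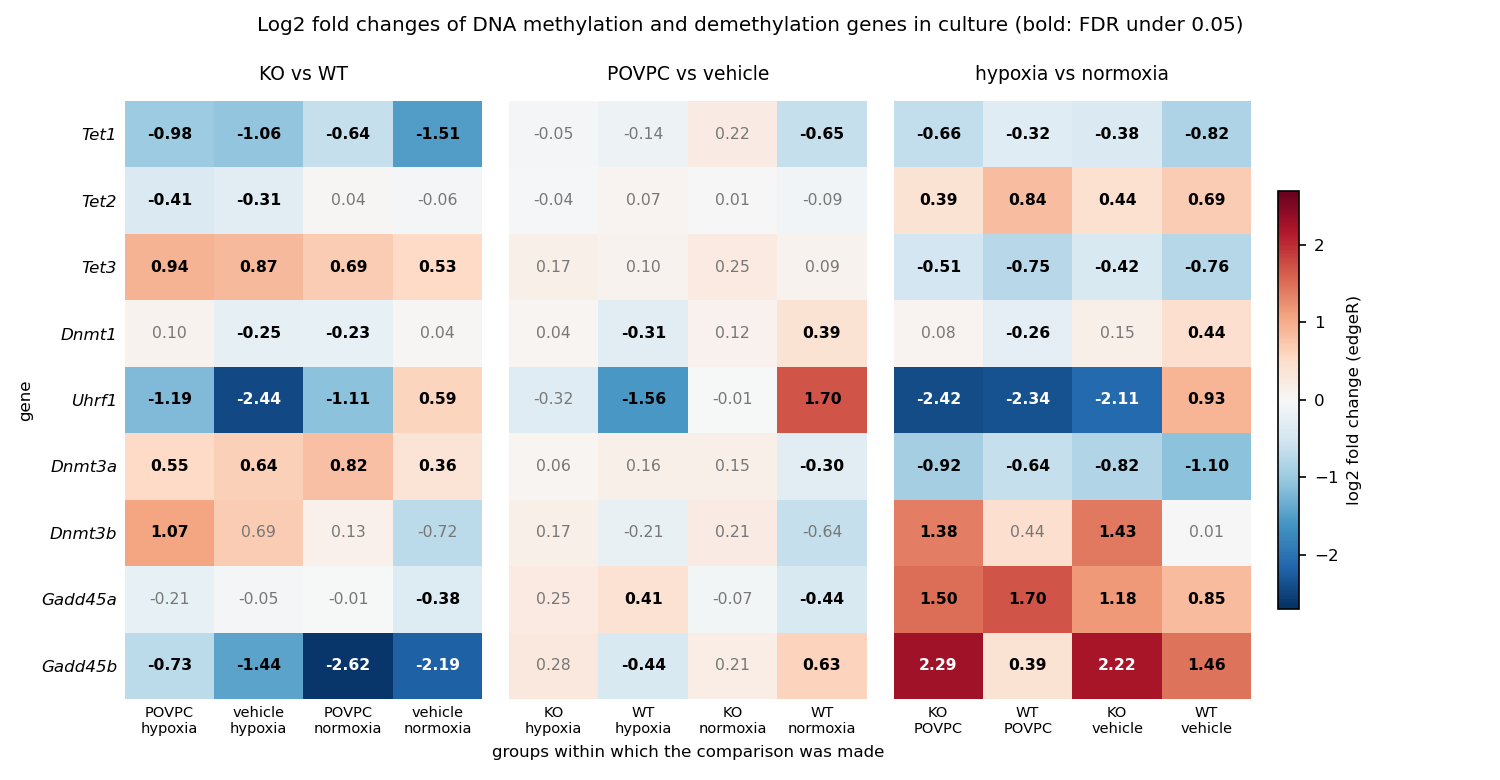
Log2 fold change (colour and printed value) of 9 genes (rows) for KO over WT, POVPC over vehicle and hypoxia over normoxia (blocks), each within 4 sets of groups (columns). Bold values passed an FDR under 0.05 in edgeR: Tet1 and Gadd45b are blue in all 4 KO columns, the KO columns of POVPC hold no bold value, and Uhrf1 is red under hypoxia only in the WT vehicle column.

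Uhrf1, the targeting factor of Dnmt1, changed direction with the condition. Under vehicle and hypoxia it had 3.54, 3.95 and 3.26 CPM in KO and 22.8, 17.2 and 18.9 CPM in WT, which is 5.42-fold lower (log2 -2.44 ± 0.181, FDR 1.79e-12). Under vehicle and normoxia it had 14.4, 16.4 and 16.2 CPM in KO and 12, 9.13 and 10 CPM in WT, which is higher (log2 0.60 ± 0.157, FDR 0.00168). The groups did not overlap in either comparison. With POVPC it was lower in KO under normoxia (15.6 ± 0.904 CPM in KO and 33.8 ± 2.39 CPM in WT, SD, n = 3 each, log2 -1.11 ± 0.151, FDR 2.5e-07) and under hypoxia (2.91 ± 0.171 CPM in KO and 7.09 ± 3.18 CPM in WT, log2 -1.19 ± 0.2, FDR 9.15e-06). Dnmt1, the maintenance enzyme, moved by far less. It was lower in KO under vehicle and hypoxia (53.7 ± 2.09 CPM in KO and 63.9 ± 7.82 CPM in WT, log2 -0.25 ± 0.0939, FDR 0.0226) and under POVPC and normoxia (52.4 ± 3.32 CPM in KO and 61.6 ± 4.63 CPM in WT, log2 -0.23 ± 0.0929, FDR 0.0329). Neither call survived every alternative: the one under hypoxia had an FDR of 0.0799 without WT vehicle hypoxia 1, 0.125 without WT vehicle hypoxia 3, 0.0516 without KO vehicle hypoxia 2 and 0.056 without KO vehicle hypoxia 3. The one under POVPC had an FDR of 0.164 without WT POVPC normoxia 1, 0.146 without KO POVPC normoxia 3 and 0.15 with scaling by library size alone.

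The start windows of Dnmt1 and Uhrf1 are shown because both hold E2F-like letters, which few windows do. They come from RefSeq (GRCm38.p6, 250 bases before to 50 after a start), for Dnmt1 at chr9:20952574-20952873 on the minus strand and for Uhrf1 at chr17:56304063-56304362 on the plus strand. Capitals mark matches on either strand to TTTCGCGC, TTTGGCGC, TTTCCCGC or TTTGGCGG, to CCAAT and to ACGTG.
Dnmt1: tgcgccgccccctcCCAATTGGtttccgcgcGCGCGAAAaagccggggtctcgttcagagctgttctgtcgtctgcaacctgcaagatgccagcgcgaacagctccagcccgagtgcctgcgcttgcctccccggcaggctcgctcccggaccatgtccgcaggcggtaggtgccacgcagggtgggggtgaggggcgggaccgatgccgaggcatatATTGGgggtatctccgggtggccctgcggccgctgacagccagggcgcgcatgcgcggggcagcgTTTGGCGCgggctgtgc
Uhrf1: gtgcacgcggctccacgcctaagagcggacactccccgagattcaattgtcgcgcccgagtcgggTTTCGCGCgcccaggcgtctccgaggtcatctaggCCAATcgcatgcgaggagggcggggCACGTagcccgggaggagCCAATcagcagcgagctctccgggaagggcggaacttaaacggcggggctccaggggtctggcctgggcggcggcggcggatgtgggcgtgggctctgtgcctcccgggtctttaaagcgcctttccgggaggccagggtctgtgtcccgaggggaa
Dnmt1 holds 2 E2F-like matches and 3 to CCAAT, of which 2 overlap as a palindrome, and Uhrf1 holds 1 E2F-like match, 2 to CCAAT and 1 to ACGTG. An E2F-like match is in 2.37% of the 32851 windows, and in no window of the other 8 members. RefSeq gives 3 windows for Dnmt1 and 2 for Uhrf1, and the others hold none of these E2F-like letters. Both windows hold 33 CpG pairs (91.4 percentile of windows, median 7), the Tet2 window holds 57 (99.8 percentile) and the Gadd45a window 14.

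Dnmt3a, the de novo enzyme of most adult tissues, was higher in KO in all 4 conditions. It had 67.7, 60.8 and 59.6 CPM in KO POVPC normoxia, against 39.4, 34.7 and 32.4 CPM in WT POVPC normoxia (1.77-fold, log2 0.82 ± 0.115, FDR 4.72e-07). The log2 fold change was 0.64 ± 0.12 under vehicle and hypoxia (FDR 3.81e-05), 0.55 ± 0.123 under POVPC and hypoxia (FDR 0.000391) and 0.36 ± 0.114 under vehicle and normoxia (FDR 0.00715). In each of these comparisons all 3 KO libraries lay above all 3 WT libraries. The call under vehicle and normoxia was lost with scaling by library size alone (log2 0.22, FDR 0.155) and without KO vehicle normoxia 3 (log2 0.27, FDR 0.0573). Dnmt3b, the de novo enzyme of early embryos, held 8 to 119 counts per culture library. It was called under POVPC and hypoxia alone, with 3.49, 4.16 and 4.53 CPM in KO and 2.80, 1.09 and 1.72 CPM in WT (log2 1.07 ± 0.326, FDR 0.00627). In the other conditions it was not called, with a log2 fold change of 0.69 under vehicle and hypoxia (FDR 0.0514), 0.13 under POVPC and normoxia and -0.72 under vehicle and normoxia (FDR 0.0584). Alternatives put both of the near ones past the threshold: 0.71 (FDR 0.0341) under vehicle and hypoxia with the compared groups fitted alone, and -1.07 (FDR 0.0152) under vehicle and normoxia without KO vehicle normoxia 3.

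Tet1, a Tet enzyme that is prominent in embryonic stem cells, was lower in every KO group. Under vehicle and normoxia it had 14.5, 15.8 and 15.7 CPM in KO and 41.8, 43.5 and 45.3 CPM in WT. Under vehicle and hypoxia it had 12.7, 9.96 and 12.8 CPM in KO and 22.8, 23.4 and 27.3 CPM in WT. All 12 KO libraries lay between 9.29 and 19.2 CPM and all 12 WT libraries between 19.7 and 45.3 CPM, so the 2 lines did not overlap in any condition. The log2 fold change was -1.51 ± 0.122 under vehicle and normoxia (2.84-fold lower, FDR 1.05e-11), -1.063 ± 0.128 under vehicle and hypoxia (FDR 3.32e-08), -0.98 ± 0.13 under POVPC and hypoxia (FDR 2.2e-07) and -0.64 ± 0.12 under POVPC and normoxia (FDR 3.84e-05).

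Tet3 went the other way. It encodes the Tet enzyme of the oocyte and of many adult tissues, and was higher in KO in all 4 conditions. With POVPC and hypoxia it had 79.2, 66.0 and 77.8 CPM in KO and 40.7, 39.3 and 36.7 CPM in WT (log2 0.94 ± 0.144, FDR 6.93e-06). With vehicle and hypoxia it had 71.3, 67.9 and 58.6 CPM in KO and 35.8, 31.7 and 40.8 CPM in WT (log2 0.87 ± 0.142, FDR 1.31e-05). The lines did not overlap in any of the 4 conditions, although the 3 KO vehicle normoxia libraries spread from 67.9 to 112 CPM (log2 0.53 ± 0.138, FDR 0.00189). Tet2, the family member without a CpG-binding domain of its own, was called in hypoxia, where it was lower in KO with POVPC (50.6 ± 4.2 CPM in KO and 67.4 ± 2.45 CPM in WT, log2 -0.41 ± 0.0939, FDR 0.000453) and with vehicle (51.8 ± 2.54 CPM in KO and 64.1 ± 8.33 CPM in WT, log2 -0.31 ± 0.0932, FDR 0.00558). The vehicle call was lost without WT vehicle hypoxia 3 (log2 -0.22, FDR 0.0568). In normoxia Tet2 had a log2 fold change of 0.04 with POVPC and -0.06 with vehicle, and was not called.

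Gadd45b, which encodes a small stress protein that binds repair and kinase partners, had the widest genotype difference. Under POVPC and normoxia it had 13, 15.1 and 13.9 CPM in KO and 84.4, 87.4 and 86.3 CPM in WT. Under vehicle and normoxia it had 11.6, 13 and 11.7 CPM in KO and 53.2, 61.1 and 52.1 CPM in WT. Every KO library lay below every WT library, and the fold was 6.15 lower under POVPC (log2 -2.62 ± 0.0973 SE, FDR 1.92e-19) and 4.58 lower under vehicle (log2 -2.19 ± 0.0985, FDR 1.51e-17). Under hypoxia the gap was smaller. KO libraries had 65.3, 59.6 and 79.9 CPM with POVPC, against 109, 105 and 124 CPM in WT (log2 -0.73 ± 0.0903, FDR 6.73e-08). With vehicle they had 57.9, 54.6 and 56.5 CPM, against 148, 165 and 146 CPM in WT (log2 -1.44 ± 0.0915, FDR 5.76e-14). The groups did not overlap in either hypoxia comparison. Gadd45a, its close relative, did not follow: it was called lower in KO under vehicle and normoxia alone (9.41 ± 0.682 CPM in KO and 12.2 ± 0.692 CPM in WT, SD, n = 3 each, log2 -0.38 ± 0.121, FDR 0.00855), and that call was lost without WT vehicle normoxia 2 (log2 -0.31, FDR 0.0525) or KO vehicle normoxia 2 (log2 -0.32, FDR 0.0531).

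**Figure D3:**
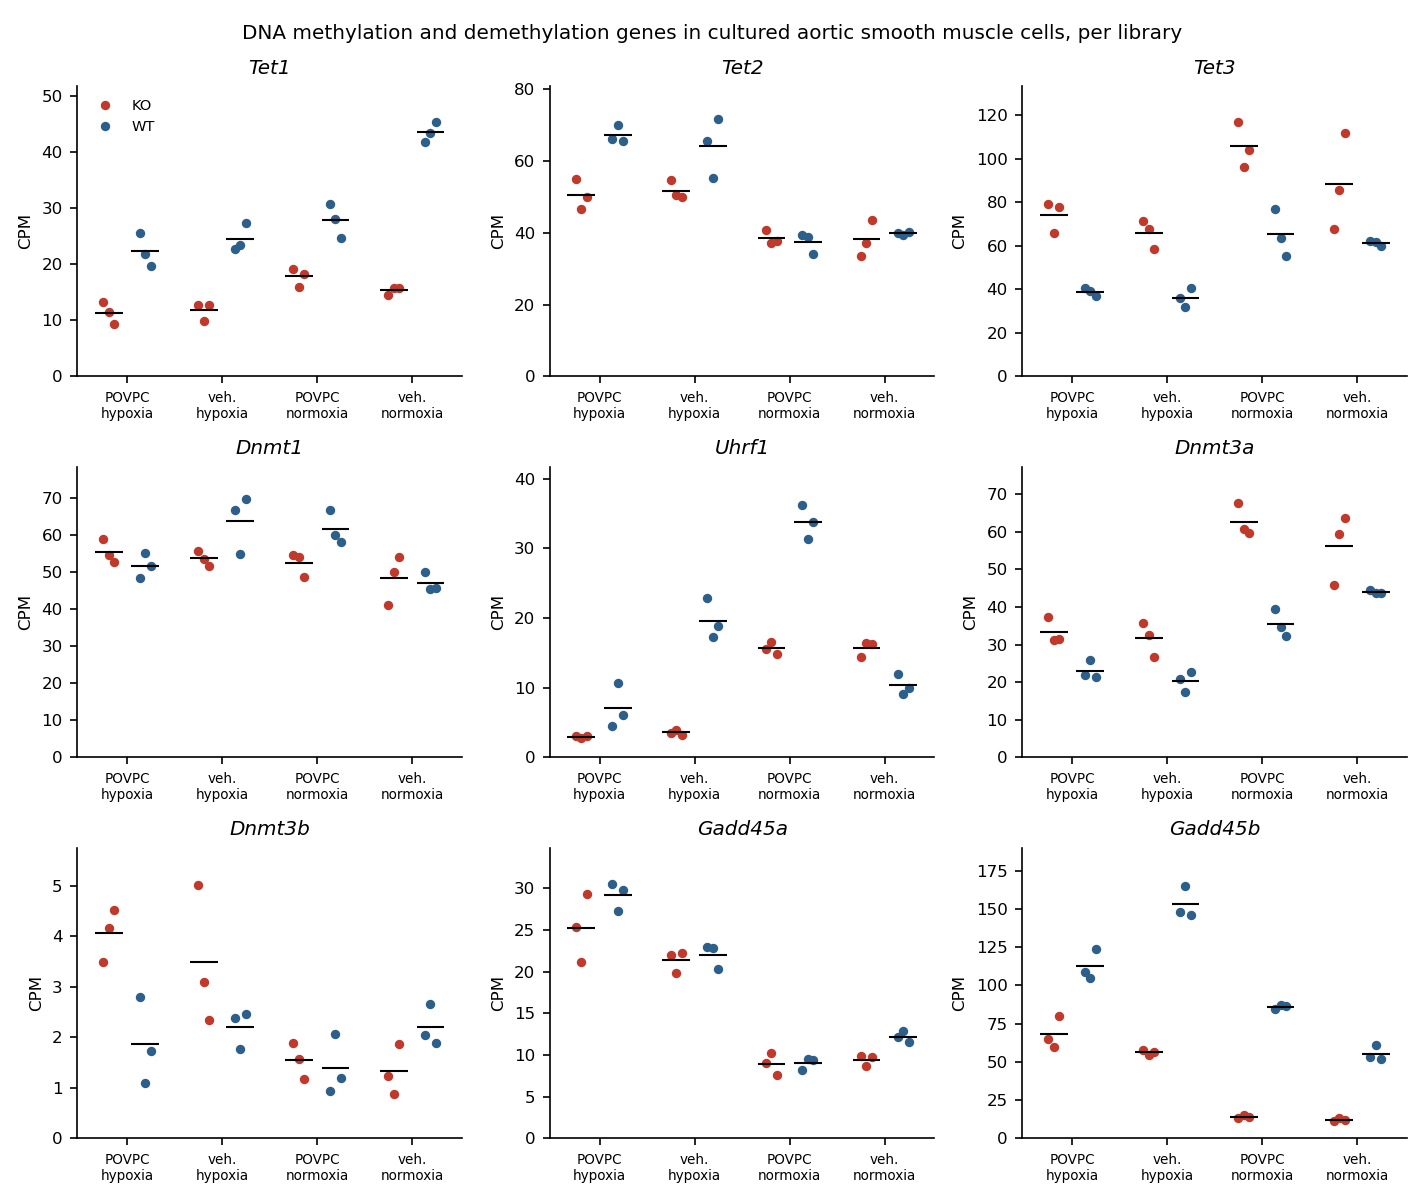
TMM-scaled CPM (y axis, from 0) of 9 genes in each of 24 culture libraries, by condition (x axis), with KO in red left of WT in blue; points are libraries and bars are means of 3. The red points of Tet1 and Gadd45b lie below the blue ones in every condition and those of Tet3 and Dnmt3a above them, while Uhrf1 is lowest in KO hypoxia and highest in WT POVPC normoxia.

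Hypoxia moved nearly every member, in both lines. Tet2, Gadd45a and Gadd45b rose and Tet1, Tet3 and Dnmt3a fell in all 4 comparisons of hypoxia with normoxia, and 32 of 36 tests passed, 16 in each direction. Of all genes, 68.5% were called in KO POVPC, 66.1% in WT POVPC, 65.4% in KO vehicle and 68.1% in WT vehicle, against 8 of the 9 members in each. In the same order, 34.5%, 31.8%, 32.6% and 32.8% of all genes rose and 33.9%, 34.3%, 32.8% and 35.3% fell. Calls in the same direction in all 4 were made for 38.5% of genes and for 6 of these 9: 3 higher, as were 18.7% of genes, and 3 lower, as were 19.8%. Libraries under hypoxia and normoxia did not overlap for 73.7% of genes in KO POVPC, 67.4% in WT POVPC, 66.4% in KO vehicle and 72.8% in WT vehicle.

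Uhrf1 answered hypoxia in opposite directions in the vehicle groups of the 2 lines. In KO vehicle it had 3.54, 3.95 and 3.26 CPM under hypoxia and 14.4, 16.4 and 16.2 CPM under normoxia, a 4.31-fold fall (log2 -2.11 ± 0.182, FDR 3.41e-11). In WT vehicle it had 22.8, 17.2 and 18.9 CPM under hypoxia and 12, 9.13 and 10 CPM under normoxia, a 1.9-fold rise (log2 0.925 ± 0.155, FDR 5.67e-06). Each of these differences left no overlap between libraries, and the difference between the responses was -3.03 ± 0.24 on the log2 scale (FDR 3.08e-11). With POVPC it fell in both lines, 5.36-fold in KO (FDR 9.37e-13) and 5.07-fold in WT (FDR 1.06e-12). Dnmt1 rose in WT vehicle (log2 0.44 ± 0.093, FDR 0.000119) and fell in WT POVPC (log2 -0.26 ± 0.0951, FDR 0.0198), and was not called in KO (log2 0.08 with POVPC and 0.15 with vehicle). The fall in WT POVPC was lost without WT POVPC normoxia 1 (FDR 0.102) and without WT POVPC hypoxia 1 (FDR 0.0883). It was also lost without the 3 shallowest libraries (log2 -0.23), a fit that kept only WT POVPC hypoxia 3 of its group.

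The de novo enzymes parted under hypoxia. Dnmt3a had 35.7, 32.5 and 26.8 CPM in KO vehicle hypoxia, against 45.9, 59.5 and 63.6 CPM in KO vehicle normoxia (log2 -0.82 ± 0.117, FDR 5.51e-07). In WT it had 20.9, 17.5 and 22.7 CPM under vehicle and hypoxia, against 44.4, 43.6 and 43.6 CPM under vehicle and normoxia (log2 -1.10 ± 0.118, FDR 2.41e-09). Hypoxia libraries lay below normoxia libraries throughout, also with POVPC (log2 -0.92 ± 0.115 in KO and -0.64 ± 0.123 in WT). Dnmt3b rose in the KO line, with 5.02, 3.10 and 2.34 CPM under vehicle and hypoxia, against 1.23, 0.876 and 1.87 CPM under vehicle and normoxia (2.69-fold, log2 1.43 ± 0.327, FDR 0.000359), and 2.61-fold with POVPC (log2 1.38 ± 0.305, FDR 0.000216). In WT it was not called, with a log2 fold change of 0.44 ± 0.355 with POVPC and 0.01 ± 0.305 with vehicle. The difference between the lines with vehicle was 1.41 ± 0.447 (FDR 0.0128), and was not called without KO vehicle hypoxia 1 (1.04, FDR 0.083).

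Under hypoxia the Tet genes moved in different directions. Tet2 rose in KO POVPC (50.6 ± 4.2 CPM under hypoxia and 38.6 ± 2.02 CPM under normoxia, log2 0.39 ± 0.0931, FDR 0.000502), in WT POVPC (67.4 ± 2.45 CPM under hypoxia and 37.5 ± 2.88 CPM under normoxia, log2 0.84 ± 0.0949, FDR 6.9e-09), in KO vehicle (log2 0.44 ± 0.0946, FDR 0.000171) and in WT vehicle (log2 0.69 ± 0.0927, FDR 1.57e-07). No hypoxia library of Tet2 lay at or below a normoxia library of the same line and treatment. With POVPC the rise was smaller in KO than in WT (difference -0.45 ± 0.133, FDR 0.0101), a call lost with scaling by library size alone (difference -0.42, FDR 0.0651). Tet1 fell by 0.66 ± 0.126 on the log2 scale in KO POVPC (FDR 3.83e-05), by 0.32 ± 0.124 in WT POVPC (FDR 0.0252), by 0.38 ± 0.131 in KO vehicle (FDR 0.0119) and by 0.82 ± 0.118 in WT vehicle (FDR 4.48e-07). The KO vehicle call was lost without KO vehicle hypoxia 2 (log2 -0.27, FDR 0.106). The WT POVPC call was lost without WT POVPC normoxia 1 (FDR 0.119) or 2 (FDR 0.0501) or without WT POVPC hypoxia 2 (FDR 0.0796) or 3 (FDR 0.16). Tet3 fell by 0.51 ± 0.137 in KO POVPC, 0.75 ± 0.144 in WT POVPC, 0.42 ± 0.139 in KO vehicle and 0.76 ± 0.14 in WT vehicle, on the log2 scale (FDR 0.0105 at most). Its fall in KO vehicle was not called without KO vehicle normoxia 3 (log2 -0.22, FDR 0.129), without KO vehicle hypoxia 3 (FDR 0.0522) or without the 3 shallowest culture libraries (log2 -0.36, FDR 0.0668).

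The largest rise under hypoxia was that of Gadd45b in the KO line. KO vehicle libraries had 57.9, 54.6 and 56.5 CPM under hypoxia and 11.6, 13 and 11.7 CPM under normoxia, which is 4.64-fold (log2 2.22 ± 0.0995, FDR 1.24e-17). With POVPC the KO rise was 4.88-fold (log2 2.29 ± 0.0967, FDR 2.52e-18). In WT it was 2.76-fold with vehicle (log2 1.46 ± 0.0905, FDR 1.47e-14) and smaller with POVPC, where 109, 105 and 124 CPM under hypoxia stood against 84.4, 87.4 and 86.3 CPM under normoxia (log2 0.39 ± 0.0897, FDR 0.000345). Hypoxia and normoxia libraries did not overlap in any of these 4 comparisons. The KO response exceeded the WT response with vehicle (difference in log2 fold change 0.75 ± 0.132, FDR 3.74e-05) and with POVPC (1.89 ± 0.131, FDR 2.83e-12). Differences between the hypoxia responses of the 2 lines were called for 39.1% of all genes with vehicle and 30% with POVPC, and for 4 and 2 of the 9 members. Gadd45a also rose in all 4 comparisons, 1.80-fold in WT vehicle, 2.26-fold in KO vehicle, 2.83-fold in KO POVPC and 3.25-fold in WT POVPC (FDR 2.06e-07 at most). No difference between the lines was called for it.

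Because Gadd45a and Gadd45b rose together under hypoxia in both lines, the RefSeq windows at their starts are shown (GRCm38.p6, 250 bases before to 50 after the start, on the strand of the gene). Gadd45a lies at chr6:67037358-67037657 on the minus strand and Gadd45b at chr10:80929841-80930140 on the plus strand. Capitals mark matches on either strand to the hypoxia response core ACGTG, the CCAAT box CCAAT and the octamer ATGCAAAT.
Gadd45a: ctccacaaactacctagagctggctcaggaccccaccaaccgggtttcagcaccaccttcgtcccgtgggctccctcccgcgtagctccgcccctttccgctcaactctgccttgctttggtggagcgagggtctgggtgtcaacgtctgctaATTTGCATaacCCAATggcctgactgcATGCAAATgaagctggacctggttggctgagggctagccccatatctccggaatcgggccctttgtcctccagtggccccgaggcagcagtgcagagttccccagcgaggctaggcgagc
Gadd45b: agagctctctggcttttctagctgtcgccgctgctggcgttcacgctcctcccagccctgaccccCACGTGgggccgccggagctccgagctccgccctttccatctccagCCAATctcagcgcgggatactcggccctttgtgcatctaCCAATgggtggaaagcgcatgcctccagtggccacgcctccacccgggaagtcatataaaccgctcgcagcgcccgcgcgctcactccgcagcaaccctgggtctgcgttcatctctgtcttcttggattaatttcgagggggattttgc
Gadd45b holds 2 matches to ACGTG, which overlap as a palindrome, and 2 to CCAAT, and Gadd45a holds 2 matches to the octamer that POU factors are known to bind and 1 to CCAAT. Among 32851 RefSeq windows of this length, 19.6% hold ACGTG, 37.4% CCAAT and 1.74% the octamer. The core ACGTG was in a window of 5 of the 10 members, the others being Tet2, Dnmt3a, Uhrf1 and Tdg. The 10 members have 15 windows, so this count by gene cannot be set against the share by window. These are letters in a window and not evidence of binding.

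POVPC calls were made in the WT line: 10 of 18 tests passed there, against 0 of 18 in KO by edgeR and by DESeq2. Of all genes, POVPC called 4.06% in KO hypoxia, 21% in WT hypoxia, 0.0414% in KO normoxia and 26.9% in WT normoxia. At an unadjusted p under 0.05 edgeR had 17.9% of genes and 2 of the 9 members in KO hypoxia. In KO normoxia it had 7.42% of genes and 1 member. Gadd45b in KO hypoxia had log2 0.28 (FDR 0.0839), and was called without KO POVPC hypoxia 2 (log2 0.37, FDR 0.0294). Tet3 in KO normoxia had log2 0.25 (FDR 0.676), and was called without KO vehicle normoxia 3 (log2 0.46, FDR 0.0492). In WT normoxia 3 members rose and 3 fell (13.1% and 13.8% of genes), and in WT hypoxia 1 rose and 3 fell (8.22% and 12.7%). The libraries with POVPC and with vehicle did not overlap for 46.6% of all genes in WT normoxia and 29.5% in WT hypoxia. The difference between the POVPC responses of the 2 lines was called for 16.2% of genes under normoxia and 9.37% under hypoxia, and for 3 and 2 members. The difference between the responses to POVPC under hypoxia and under normoxia was called for 0.642% of genes and 0 members in KO, and for 23.5% of genes and 6 members in WT. Reads of the ribosomal gene Rn45s made up 3.23 to 11.1% of counts in WT POVPC normoxia and 1.31 to 1.5% in WT vehicle normoxia. In KO POVPC normoxia they made up 1.71 to 3.94%. The KO vehicle normoxia libraries 1, 2 and 3 had 1.59%, 1.29% and 8.02%. The part of these reads in the POVPC results was not tested.

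Uhrf1 carried the largest POVPC changes of the 9 genes. It had 36.2, 31.4 and 33.8 CPM in WT POVPC normoxia, against 12, 9.13 and 10 CPM in WT vehicle normoxia, a 3.26-fold rise (log2 1.70 ± 0.155, FDR 6.17e-10). In WT POVPC hypoxia it had 4.54, 10.7 and 6.06 CPM, against 22.8, 17.2 and 18.9 CPM in WT vehicle hypoxia, a 2.95-fold fall (log2 -1.56 ± 0.174, FDR 1.28e-07). The groups did not overlap either time, and the difference between the hypoxia and normoxia responses to POVPC in WT was -3.27 ± 0.232 (FDR 1.02e-11). In KO the change was -0.005 ± 0.154 under normoxia and -0.32 ± 0.208 under hypoxia, not called, and the KO and WT responses differed by -1.71 ± 0.217 under normoxia (FDR 8.24e-07) and 1.24 ± 0.272 under hypoxia (FDR 0.00321). Dnmt1 followed the same signs in WT at a smaller size. It had 66.8, 59.9 and 58.0 CPM in WT POVPC normoxia, against 50.0, 45.4 and 45.7 CPM in WT vehicle normoxia (log2 0.39 ± 0.0931, FDR 0.00192). Under hypoxia it had 48.3, 55.2 and 51.6 CPM in WT POVPC, against 66.8, 55.0 and 69.8 CPM in WT vehicle, and these groups overlapped (log2 -0.31 ± 0.095, FDR 0.019). The rise was lost with scaling by library size alone (log2 0.28, FDR 0.0741). The fall was lost without WT vehicle hypoxia 1 (FDR 0.0724) or 3 (FDR 0.0998) and without WT POVPC hypoxia 1 (FDR 0.0927). It was also lost with the compared groups fitted alone (FDR 0.0979) and without the 3 shallowest libraries (log2 -0.315).

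Replication genes are shown beside them because Uhrf1 and Dnmt1 are known to be made mostly in dividing cells. Of 18 S phase and mitosis genes, 18 rose with POVPC in WT normoxia (median log2 1.02, against -0.02 over all genes) and 12 fell in WT hypoxia (median -0.55, against -0.01). Of all genes, 13.1% rose in WT normoxia and 12.7% fell in WT hypoxia. In KO, 0 of the 18 were called for POVPC in either oxygen condition. The DNA topoisomerase gene Top2a had 113 ± 10.9 CPM in WT POVPC normoxia and 38.7 ± 3.55 CPM in WT vehicle normoxia (SD, n = 3 each, log2 1.54 ± 0.0997, FDR 4.86e-13). Under hypoxia with vehicle, 9 of the 18 rose and 7 fell in KO, and 12 rose and 4 fell in WT. Of all genes, 32.6% rose and 32.8% fell in KO vehicle, and 32.8% rose and 35.3% fell in WT vehicle. There the helicase gene Mcm7 rose in KO (114 ± 5.85 CPM under hypoxia and 46.2 ± 0.338 CPM under normoxia) while Top2a fell (5.39 ± 0.535 CPM under hypoxia and 58.4 ± 3.73 CPM under normoxia). The list, in whose sum genes of high CPM weigh most, summed to 631 to 647 CPM in KO vehicle hypoxia and 451 to 477 CPM in KO vehicle normoxia. Between these groups Uhrf1 and Top2a were lower under hypoxia, and Mcm7 and the sum were higher. The part of cell division in the Uhrf1 and Dnmt1 results was not tested.

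**Figure D4:**
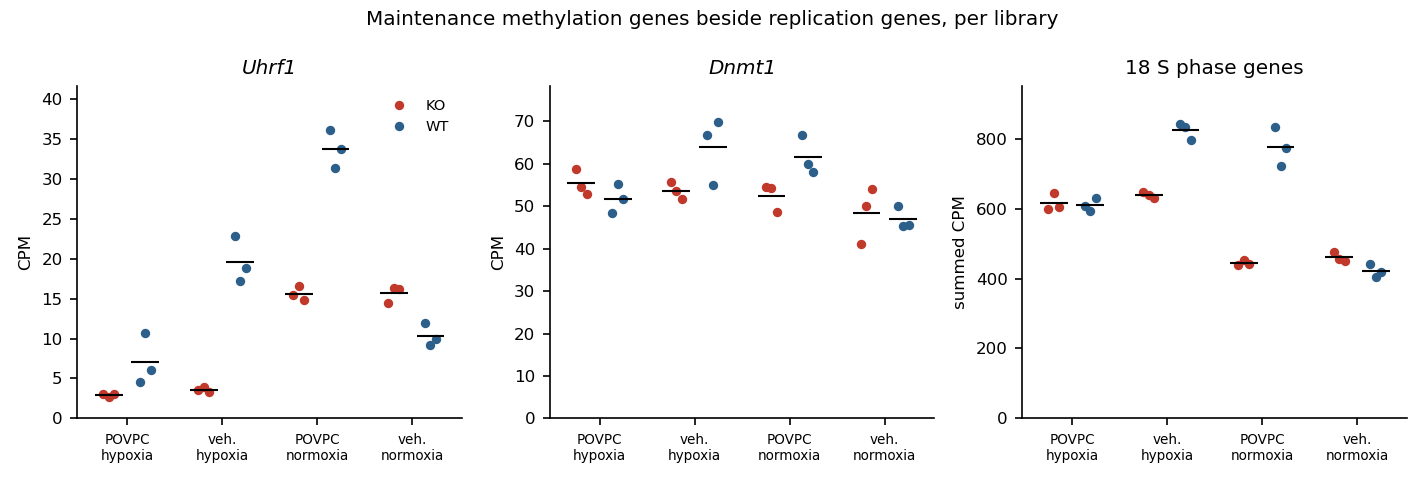
TMM-scaled CPM (y axis, from 0) of Uhrf1, of Dnmt1 and summed over 18 S phase genes in 24 culture libraries, by condition (x axis), with KO in red left of WT in blue; points are libraries and bars are means of 3. WT POVPC normoxia is high in all 3 panels. KO hypoxia is lowest for Uhrf1 and lies near 600 to 650 CPM in the sum, in which genes of high CPM weigh most.

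The other POVPC changes in WT were smaller than those of Uhrf1. Tet1 had 30.8, 28 and 24.7 CPM in WT POVPC normoxia, against 41.8, 43.5 and 45.3 CPM in WT vehicle normoxia (log2 -0.645 ± 0.117, FDR 8.55e-05). Its POVPC response differed between KO and WT under normoxia by 0.865 ± 0.17 (FDR 0.000419), with 17.8 ± 1.66 CPM in KO POVPC normoxia and 15.3 ± 0.7 CPM in KO vehicle normoxia. Gadd45b had 84.4 to 87.4 CPM in WT POVPC normoxia and 52.1 to 61.1 CPM in WT vehicle normoxia (log2 0.63 ± 0.0897, FDR 2.19e-06). Under hypoxia it went the other way, with 105 to 124 CPM in WT POVPC and 146 to 165 CPM in WT vehicle (log2 -0.44 ± 0.0892, FDR 0.000661). The libraries of the groups did not overlap in any of these comparisons of Tet1 and Gadd45b in WT. Gadd45a fell in WT normoxia (9.01 ± 0.71 CPM with POVPC and 12.2 ± 0.692 CPM with vehicle, log2 -0.44 ± 0.121, FDR 0.00672) and rose in WT hypoxia (29.2 ± 1.67 CPM with POVPC and 22 ± 1.45 CPM with vehicle, log2 0.41 ± 0.115, FDR 0.01). Dnmt3a was just inside the threshold in WT normoxia (35.5 ± 3.57 CPM with POVPC and 43.9 ± 0.481 CPM with vehicle, log2 -0.305 ± 0.115, FDR 0.0486). That call was lost without any 1 of WT vehicle normoxia 1, 2 and 3 and WT POVPC normoxia 2 and 3 (FDR 0.0883 to 0.203), and without a filter on low counts (FDR 0.0539). Without the 3 shallowest libraries, the hypoxia calls of Gadd45b (log2 -0.31) and Gadd45a (log2 0.43) were lost. That fit kept only WT POVPC hypoxia 3 of its group. The hypoxia call of Gadd45a was also lost without WT vehicle hypoxia 3 (log2 0.36, FDR 0.0564).

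Partners of these enzymes were counted from 4 lists chosen for their function. Of 14 tested partners of maintenance and de novo methylation, 4 rose and 1 fell with POVPC in WT normoxia, where 13.1% of all genes rose and 13.8% fell. Among those that rose were Uhrf2, a relative of Uhrf1 (187 ± 3.53 CPM with POVPC and 119 ± 5.34 CPM with vehicle, log2 0.65 ± 0.064, FDR 3.07e-09), and Hells, the remodeller that opens DNA for methylation (16.5 ± 1.56 CPM with POVPC and 6.78 ± 0.564 CPM with vehicle, log2 1.28 ± 0.162, FDR 3.05e-07). Zfp57, which guards methylation at imprinted genes, fell there (40.8 ± 2.6 CPM with POVPC and 60 ± 2.6 CPM with vehicle, log2 -0.56 ± 0.096, FDR 4.06e-05). Between the lines, 6 of these 14 were higher and 5 lower in KO under vehicle and hypoxia, where 29.5% of all genes were higher and 30.4% lower. Trim28, the corepressor that zinc finger proteins recruit, was higher in KO there (632 ± 14.3 CPM in KO and 298 ± 9.76 CPM in WT, log2 1.084 ± 0.0688, FDR 5.77e-14).

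Of 10 genes for methyl-CpG readers, 4 rose and 4 fell under hypoxia in KO vehicle, and 3 rose and 5 fell in WT vehicle, beside shares of all genes of a similar size (32.6% up and 32.8% down in KO vehicle, 32.8% up and 35.3% down in WT vehicle). Mbd3, a subunit of the NuRD complex, rose in both lines (log2 0.79 ± 0.0775 in KO and 1.24 ± 0.076 in WT). Zbtb38, a zinc finger reader, was lower in KO under vehicle and normoxia (60.1 ± 8.95 CPM in KO and 152 ± 3.48 CPM in WT, log2 -1.34 ± 0.098, FDR 1.16e-12).

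Among 18 tested repair and Tet partners, 2 were higher and 9 lower in KO under vehicle and hypoxia (median log2 -0.35, against 0.01 over all genes), and 4 higher and 6 lower under vehicle and normoxia. Of all genes, 29.5% were higher and 30.4% lower under vehicle and hypoxia, and 29.8% higher and 30.8% lower under vehicle and normoxia. Gadd45g, another gene of its family, was higher in KO under vehicle and normoxia (58.4 ± 3.29 CPM in KO and 20.5 ± 2.28 CPM in WT, log2 1.51 ± 0.0915, FDR 1.54e-14), opposite in sign to Gadd45b. Apex1, the endonuclease of base excision repair, rose under hypoxia in KO vehicle (51.6 ± 2.74 CPM under hypoxia and 20.8 ± 0.768 CPM under normoxia) and in WT vehicle (67.3 ± 12.2 CPM under hypoxia and 22.8 ± 1.06 CPM under normoxia).

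Enzymes of the metabolism of the methyl donor and of 2-oxoglutarate, the cofactor of Tet enzymes, split under hypoxia. Of 20, 7 went up and 7 down in KO vehicle, and 10 up and 5 down in WT vehicle. Of all genes, 32.6% went up and 32.8% down in KO vehicle, and 32.8% up and 35.3% down in WT vehicle. Idh2, the mitochondrial isocitrate dehydrogenase, fell in KO vehicle (50.9 ± 5.03 CPM under hypoxia and 165 ± 16.5 CPM under normoxia, log2 -1.70 ± 0.0925, FDR 1e-15) and in WT vehicle (48.5 ± 4.29 CPM under hypoxia and 183 ± 4.83 CPM under normoxia, log2 -1.92 ± 0.0921, FDR 3.85e-17). Idh1, its cytosolic relative, rose in WT vehicle (658 ± 59.4 CPM under hypoxia and 205 ± 4.62 CPM under normoxia, log2 1.68 ± 0.101, FDR 9.84e-15). Stress genes of the p53 and ATF4 pathways are given beside the Gadd45 pair: 12 of 16 rose under hypoxia in KO POVPC, KO vehicle and WT vehicle, and 13 in WT POVPC. Of all genes, 31.8% to 34.5% rose in these 4 comparisons.

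In lesions no member passed the test between KO and WT, and edgeR called 0 of 14993 genes (0%). At an unadjusted p under 0.05 there were 14.8% of genes and 2 of the 9 members, Tet1 and Gadd45a. DESeq2 called 463 genes and no member, and edgeR without a filter on low counts called 11 genes and no member. Lesions hold several cell types, so fewer cells of a type and less RNA per cell cannot be told apart.

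Tet1 had 18.1, 17, 18.7 and 17 CPM in KO animals, against 22.7, 20.1, 31.2 and 23.6 CPM in WT animals. The 4 KO values lay below all 4 WT values, and 8.8% of all genes showed no overlap between the groups in either direction. The log2 fold change was -0.46 ± 0.137 (FDR 0.192), the same sign as in culture, and its FDR over 15 alternatives ran from 0.0998 to 0.427. Gadd45a had 20.4, 33.1, 36.0 and 48.0 CPM in KO animals and 17, 22.9, 24.6 and 17.2 CPM in WT animals (log2 0.76 ± 0.242, FDR 0.22, 0.0581 to 0.427 over the alternatives). Its estimate was 0.46 without KO animal 4 and WT animal 1 and 0.92 without KO animal 1. Here KO animal 1 lay within the WT range and the other 3 KO animals above it. Gadd45b had 15.8, 20.4, 22.1 and 31.9 CPM in KO animals and 13.3, 20.4, 21.5 and 13.5 CPM in WT animals, and the groups overlapped (log2 0.40 ± 0.238, FDR 0.474). Its sign was opposite to that in culture, where it was lower in KO, and the difference between lesions and culture was not tested. The estimate was 0.067 without KO animal 4 and WT animal 1 and at most 0.515 in the other alternatives.

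Dnmt3a, the highest of the methyltransferases in lesions, had 155, 240, 206 and 337 CPM in KO animals and 180, 208, 195 and 163 CPM in WT animals (log2 0.33 ± 0.209, FDR 0.499). The estimate was 0.07 without KO animal 4 and WT animal 1 and 0.46 without KO animal 1. The KO values reached both below and above the WT range. Tet3 had a log2 fold change of -0.21 ± 0.172 (FDR 0.599), Dnmt3b of -0.16 ± 0.213 (FDR 0.755) and Uhrf1 of 0.10 ± 0.22 (FDR 0.851), each with overlapping groups. Dnmt1 (78.3 ± 8.8 CPM in KO and 76.5 ± 6.36 CPM in WT) and Tet2 (86.1 ± 12.6 CPM in KO and 87.2 ± 11.9 CPM in WT) were close to level, at log2 0.03 ± 0.102 and -0.02 ± 0.129. Over the alternatives the sign turned for Dnmt1 (-0.058 to 0.068), Tet2 (-0.124 to 0.074) and Uhrf1 (-0.057 to 0.245).

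Macrophage markers summed to 3380, 6170, 5370 and 8310 CPM in KO animals 1 to 4, against 2260, 3040, 2770 and 2000 CPM in WT animals 1 to 4, and smooth muscle markers to 3630 to 5350 CPM in KO and 5060 to 7960 CPM in WT animals. Of 6 macrophage markers 6 were higher in KO, none past the FDR and 6 at an unadjusted p under 0.05, and none was at 0. Endothelial markers summed to 936 to 1110 CPM in KO and 744 to 889 CPM in WT animals, which did not overlap, with 4 of 5 at an unadjusted p under 0.05. KO animal 4, which was highest of its group in Gadd45a, Gadd45b, Dnmt3a, Tet2, Tet3 and Dnmt1, was also the highest in macrophage markers. The part of the markers in these values was not tested.

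**Figure D5:**
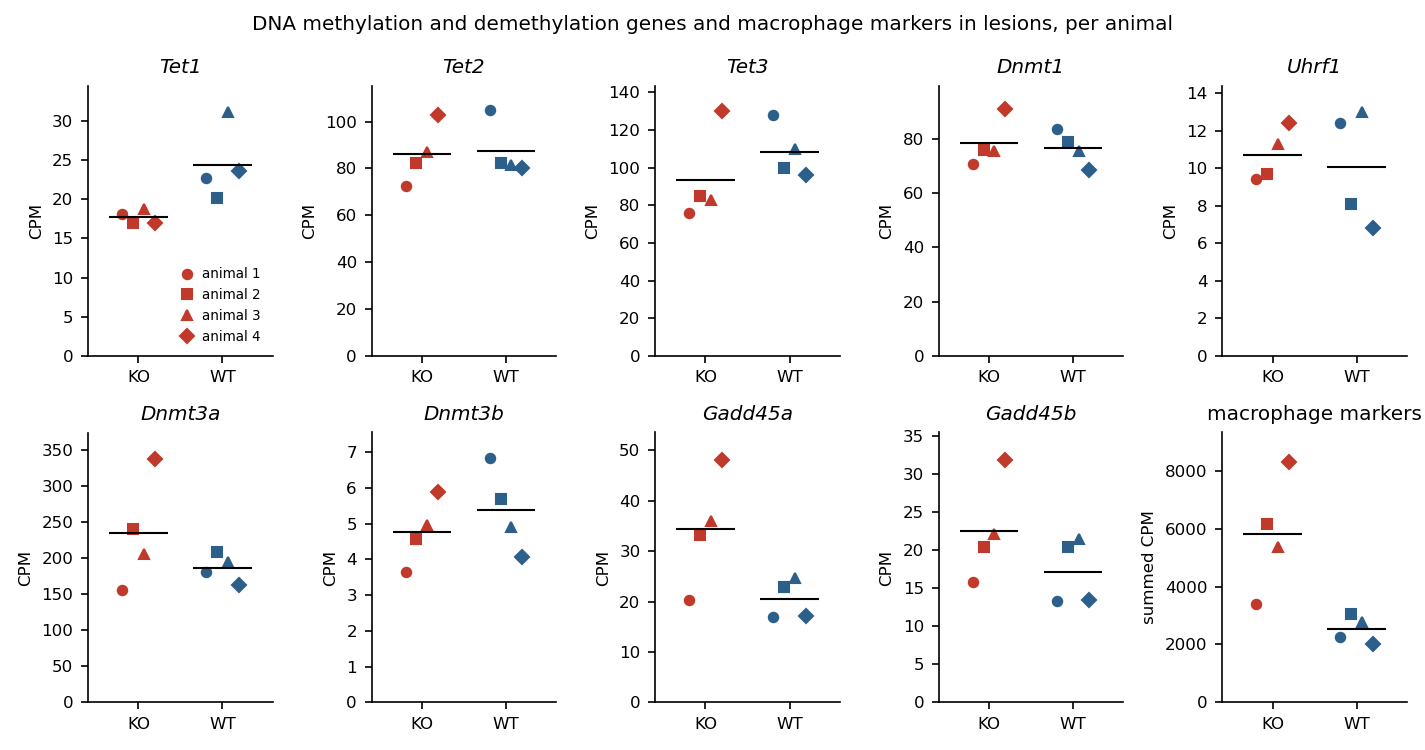
TMM-scaled CPM (y axis, from 0) of 9 genes, and of macrophage markers summed, in lesions of 4 KO animals (red, left) and 4 WT animals (blue, right); symbols give the animal number, which does not pair animals between groups, and bars are means. The groups separate for Tet1 and for the macrophage markers and overlap for the other genes; KO animal 4 is the highest point of its group in 8 of the 9 genes.

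Across the 24 culture libraries, Tet3 and Dnmt3a ran together (Pearson r of log2 CPM 0.92), as did Tet2 and Gadd45a (r 0.87), and Gadd45b ran against Dnmt3a (r -0.90) and Tet3 (r -0.83). These libraries fall into 8 groups of 2 lines, so the values describe the groups and carry no p. The genes nearest to each member by the same measure, among 11200 genes, were Por (r 0.981), Dnlz and Rnps1 for Gadd45b, Impa2 (r 0.974), Mn1 and Mmp2 for Dnmt3a, Cdk9 (r 0.971), Fnip1 and Pdk1 for Gadd45a, and Dctn1 (r 0.967), Plxna2 and Cbx2 for Tet3. For Tet2 they were Phf20l1 (r 0.964), Skil and Sltm, for Tet1 Shroom4 (r 0.961), Cbx5 and Ppp1r26, and for Uhrf1 Fam64a and Kif18b (r 0.958 each) and Filip1l. Dnmt3b (Rbm12, r 0.861, Nxf1 and Zbtb32) and Dnmt1 (Ccdc6, r 0.788, Arfgef2 and Fbln2) had lower values.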

How the data were processed

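RNA was sequenced from 8 lesions and 24 culture libraries. The deposited tables hold whole-number counts per gene, made by the authors with featureCounts 1.4.4 over mm9 exons, per the file headers, without strand and without reads that map to several places. The submitters' processing notes also name CASAVA, STAR and DESeq2. Lesion counts are fragments; culture counts are reads, mates counted apart. Depth was 8063121 to 30231799 counts per culture library and 6526099 to 11137414 per lesion.

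Each table was fitted alone in edgeR 4.0.16 (R 4.3.3, limma 3.58.1) with TMM scaling, filterByExpr (minimum count 10, minimum total 15) and the robust quasi-likelihood test. All 8 culture groups shared 1 fit, which left 14496 genes in culture and 14993 in lesions. Over 19 comparisons (1 in lesions, 12 between pairs of culture groups, 6 differences between responses), Benjamini-Hochberg FDR was taken within each over all genes, and called means an FDR under 0.05. Values printed with ± beside a fold change are standard errors, and those beside CPM or RPKM are SD. The members and lists were chosen with earlier results of these data known. All 10 members were named throughout, with up to 4 genes per list by smallest p in a comparison and the 3 nearest genes per member by Pearson r of log2(CPM + 0.5). The test was tried on simulated data. Alternatives were DESeq2 1.42.0, RLE size factors, library size alone, no filter or one of 5 CPM, groups fitted alone, halved counts, a replicate block, the 3 shallowest culture libraries or 2 lesions left out, and each library left out in turn. Promoter windows come from RefSeq (GRCm38.p6), while gene coordinates in the files are mm9.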

Additional observations from a re-analysis of the deposited data

Results flagged for a closer look

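In lesions, each of the 10 genes was looked at in each genotype, 20 sets of 4 values from the same 8 animals, and 2 of the 20 held a value far from the rest, where chance alone gives about 1 in 20. Tet3 was highest in KO animal 4, at 130 CPM, where the gap to the next animal was 0.831 of the range, above the 95% critical value for 4 samples. Tet2 was highest in WT animal 1, at 105 CPM, with a gap of 0.908 of the range. These are the 2 animals that stood farthest from the others on the principal components of all genes.

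In culture, 17 of 54 differences between responses passed the FDR in edgeR. The KO response to POVPC differed from that of WT under normoxia for Tet1 (0.865 on the log2 scale), Uhrf1 (-1.709) and Gadd45b (-0.426). Under hypoxia it differed for Uhrf1 (1.244) and Gadd45b (0.714). The KO response to hypoxia with vehicle differed from that of WT for Tet1 (0.443), Dnmt3b (1.414), Uhrf1 (-3.032) and Gadd45b (0.752), and with POVPC for Tet2 (-0.45) and Gadd45b (1.892). Of all genes, the POVPC responses differed for 16.2% under normoxia and 9.37% under hypoxia. The hypoxia responses differed for 39.1% with vehicle and 30% with POVPC.

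The WT response to POVPC under hypoxia differed from that under normoxia for Tet1 (0.506), Dnmt1 (-0.7), Dnmt3a (0.461), Uhrf1 (-3.267), Gadd45a (0.853) and Gadd45b (-1.069), with 23.5% of all genes called. In KO the same difference was called for 0 of 9 members and 0.642% of genes.

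Of these 17 differences, 10 held in every alternative, among them the 4 of Uhrf1. That of Tet1 for hypoxia with vehicle was lost without any 1 of KO vehicle hypoxia 1 and 3, WT vehicle hypoxia 1 and 2, KO vehicle normoxia 1, 2 and 3 and WT vehicle normoxia 1, 2 and 3 (edgeR FDR 0.0515 to 0.14), and with RLE size factors (0.0585), DESeq2 (0.0511), no low-count filter (0.13), halved counts (0.0603) or the 3 shallowest libraries left out (0.139). The WT difference of Tet1 was lost without WT POVPC hypoxia 1 or WT vehicle hypoxia 1 or 2. It was also lost without WT POVPC normoxia 2 or 3 or WT vehicle normoxia 2 or 3 (FDR 0.0526 to 0.126 over all of these). Without the 3 shallowest libraries, which kept only WT POVPC hypoxia 3 of its group, it was lost too (log2 difference 0.319). The WT difference of Dnmt3a was lost without WT POVPC hypoxia 1 or 2 or WT vehicle hypoxia 1 or 2. It was also lost without WT POVPC normoxia 2 or 3 or WT vehicle normoxia 1, 2 or 3 (FDR 0.065 to 0.133 over all of these). So it was without a low-count filter (FDR 0.0638) and without the 3 shallowest libraries (log2 difference 0.353). That of Gadd45b under normoxia was lost without KO POVPC normoxia 1 or 3, WT POVPC normoxia 2, KO vehicle normoxia 2 or WT vehicle normoxia 1 or 3 (FDR 0.0524 to 0.0909), and with library size alone (-0.253, FDR 0.313). That of Gadd45b under hypoxia was lost without the 3 shallowest libraries (log2 difference 0.577). That of Tet2 was lost with library size alone (-0.418, FDR 0.0651) and that of Dnmt3b without KO vehicle hypoxia 1 (1.036, FDR 0.083).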

How the results depend on the processing

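No called value of a member changed sign in any alternative; in lesions, where none was called, the signs of Tet2, Dnmt1 and Uhrf1 turned in some. Of the calls of members, 64 of 85 held in every one: 21 of 26 for genotype, 5 of 10 for POVPC, 28 of 32 for hypoxia and 10 of 17 for differences between responses. With 1 library left out at a time, members called numbered 24 to 28 for genotype, 8 to 11 for POVPC, 31 to 33 for hypoxia, 13 to 20 for differences and 0 in lesions.

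Counts of genes over the whole tables moved more. With library size alone, POVPC in KO called 3 genes under normoxia (6 with TMM) and 341 under hypoxia (588), and the difference between them 30 (93). DESeq2 called 463 genes in lesions, 16 and 976 for POVPC in KO and 265 for the difference. Without a filter on low counts lesions gave 11 calls, and without KO 4 and WT 1 they gave 1. Groups fitted alone gave 0 for POVPC in KO normoxia, 1720 in WT hypoxia (3037) and 828 (1358) for the difference between the KO and WT responses to POVPC under hypoxia. Without the 3 shallowest libraries these last 2 were 1073 and 426, and the WT difference between hypoxia and normoxia was 1993 (3413). With 1 library left out, POVPC in KO called 1 (without KO vehicle normoxia 2) to 310 genes (without KO vehicle normoxia 3) under normoxia, 269 (without KO vehicle hypoxia 2) to 532 under hypoxia, and 48 (without KO POVPC normoxia 1) to 170 (without KO POVPC hypoxia 1) for their difference. The cause was not tested.

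Library size alone moved the median of all genes to -0.157 for KO over WT under vehicle and normoxia (37% of calls higher, 49.1% with TMM), -0.13 for POVPC in WT normoxia (31.4% and 48.7%), -0.211 for hypoxia in WT vehicle (36.4% and 48.1%) and -0.109 in WT POVPC.

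Libraries of different groups were correlated after the group means were taken out. In culture, same-numbered ones correlated at -0.424 to 0.554 (mean 0.013) and other-numbered ones at -0.52 to 0.541 (mean -0.007). In lesions these ranges were -0.666 to 0.121 (mean -0.186) and -0.396 to 0.592 (mean 0.065). Of the culture libraries, 12 of 24 correlated best with their own number, and of the lesions 1 of 8. Whether the numbers pair libraries was not tested. With the replicate block, members called were 26 for genotype, 9 for POVPC, 32 for hypoxia, 16 for differences and 0 in lesions, and the calls not made were those of Dnmt3a for POVPC in WT normoxia (-0.307, FDR 0.0538) and for the WT difference between hypoxia and normoxia (0.464, FDR 0.0536). The low counts of Tdg and Dnmt3b limit what could be seen of them, and a filter of 5 CPM left Dnmt3b out.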
